A study of Rattus norvegicus with 6 samples.

Results

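The SLC7 family of amino acid transporters and the heavy chains Slc3a2 and Slc3a1 were examined in injured rat sciatic nerve. The genes were taken from the deposited tables by name, as Slc7a followed by a number or as one of both heavy chains, which gave 17 of the 33713 genes in the count table. Those with a mean of at least 1 CPM (a read count scaled to a common library size with TMM factors) in either group are described, which left 12. The members were chosen by gene name and selected on mean CPM. The rule also names Slc7a10, which was chosen by its lower CPM in ES, so its values in this contrast are given as a description with no test. The other members were taken by name and level. Slc7a15 met the level rule through control alone (a mean of 3.04 CPM, against 0.679 CPM in ES), so that its inclusion favours a lower value in ES, and it too is described with no test. The other 10 met the rule in both groups.

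The study sequenced RNA from the sciatic nerve of female Sprague-Dawley rats aged 8 weeks, on day 4, in 3 control and 3 ES libraries. Per the labels' protocols, a gap of around 6 mm formed by retraction, and each nerve end was sutured 2 mm deep into a silicone tube of 10 mm. The ES group was electrically stimulated for 1 h at once, and the control group was not, so that both groups were injured and repaired and no uninjured nerve was compared here. Whether each library stands for its own animal is not in the labels. A p-value here therefore reflects the spread of these libraries, which may be technical.

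SLC7 proteins move amino acids across cell membranes. The cationic amino acid transporters (Slc7a1, Slc7a2, Slc7a3) work alone and carry arginine, lysine and ornithine. The light chains (Slc7a5 to Slc7a11 and relatives) are exchangers that must pair with a heavy chain through a disulphide bond to reach the cell surface. Slc3a2 (CD98hc, 4F2hc) carries most of them, and Slc3a1 (rBAT) carries Slc7a9. In cells under amino acid shortage or oxidative stress the transcription factors ATF4 and NRF2 are known to induce several members, among them Slc7a11, whose protein imports the cystine used for glutathione.

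Library totals ran from 14962319 to 17119144 counts. The Schwann cell factor Sox10 was at 288 CPM or more in every library, and the 10 Schwann markers summed to between 9305 and 12652 CPM. The 14 adipocyte markers summed to between 1792 and 2302 CPM in control and between 290.1 and 999 CPM in ES. The 7 neutrophil markers summed to 179 CPM in ES 2 and to between 13.1 and 24.3 CPM elsewhere. The 3 erythrocyte markers with a row, led by the haemoglobin gene Hbb, summed to 1183 CPM in ES 2 and to between 55.6 and 138 CPM elsewhere. The 15 macrophage markers with a row summed to between 2808 and 3367 CPM in control and between 3704 and 4998 CPM in ES.

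Of the 11 members other than Slc7a10, 8 had a fitted fold change below 1.5 in either direction, against 92.1% of all genes tested. The others were Slc7a15, which met the rule through control alone, Slc7a4 and Slc7a11. The log2 fold change was 0.08 for Slc7a4 without control 2 and 0.25 for Slc7a11 without ES 2. Nothing is therefore read from the smaller share of members. Slc3a2 was by far the most abundant, followed by Slc7a5 and Slc7a7, and none of these differed between the groups beyond the spread between libraries. Slc7a10 was 12.7-fold lower in ES, and Slc7a15 had the next lowest fold change. The libraries of 2 members, these same genes, did not overlap between the groups, and 8.23% of all genes tested were lower in ES without overlap. As both were included in a way that favours a lower value in ES, nothing is read from that count. Of the members 0 were higher without overlap, against 7.54% of all genes tested. edgeR's quasi-likelihood test over 14828 genes, with a call at a Benjamini-Hochberg adjusted p under 0.05, called 1 of the 12 members, Slc7a10, against 0.169% of all genes tested. Because Slc7a10 was chosen for this fall, nothing is read from that call. Of the other 11 members edgeR called 0, and 2 (Slc7a15 and Slc7a11) had an unadjusted p under 0.05, against 9.95% of all genes tested. DESeq2 called Slc7a15 as well, and 2.03% of its genes, and nothing is read from the p or the call of Slc7a15, given how it met the rule. The median log2 fold change was 0.09 over the 11 members and 0.0025 over all genes tested.

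**Figure D1:**
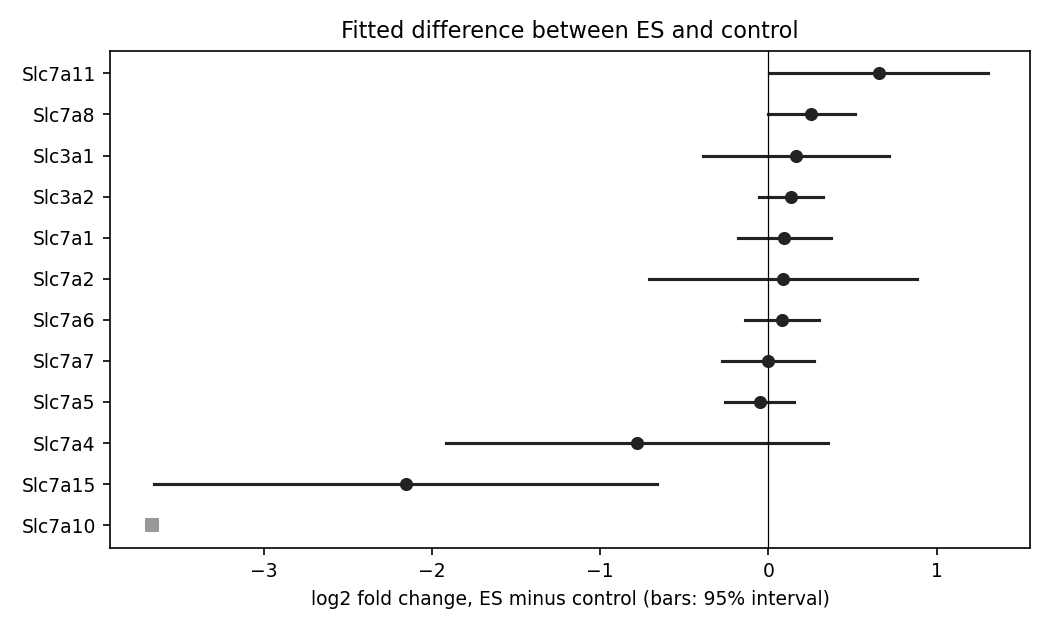
Log2 fold change of each of the 12 members (ES minus control, horizontal axis) from edgeR, with 95% intervals as bars. Slc7a10, the grey square, was chosen for its fall and is drawn without an interval, and the interval of Slc7a15, which met the level rule through control alone, is a description. The members other than Slc7a10 and Slc7a15 lie between −0.78 and 0.66.

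The promoters of the 3 members with the lowest fold changes or the largest positive one, Slc7a10, Slc7a15 and Slc7a11, are shown because the regulators known for this family act at such regions. They are RefSeq sequences of the rat build GRCr8, each from 250 bases before to 50 bases after a transcription start, and 13 of the 17 genes had such an entry. They lie at chr1:96965872-96966171 on the plus strand (Slc7a10), chr6:37134452-37134751 on the minus strand (Slc7a15) and chr2:136668215-136668514 on the minus strand (Slc7a11). Capitals mark matches to any motif searched, written 5′ to 3′.
Slc7a10: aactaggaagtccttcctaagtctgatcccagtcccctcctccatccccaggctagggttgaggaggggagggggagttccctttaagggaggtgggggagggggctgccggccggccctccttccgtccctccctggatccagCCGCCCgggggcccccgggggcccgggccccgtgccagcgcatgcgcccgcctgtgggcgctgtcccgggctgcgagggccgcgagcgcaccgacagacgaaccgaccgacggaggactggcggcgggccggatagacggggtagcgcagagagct
Slc7a15: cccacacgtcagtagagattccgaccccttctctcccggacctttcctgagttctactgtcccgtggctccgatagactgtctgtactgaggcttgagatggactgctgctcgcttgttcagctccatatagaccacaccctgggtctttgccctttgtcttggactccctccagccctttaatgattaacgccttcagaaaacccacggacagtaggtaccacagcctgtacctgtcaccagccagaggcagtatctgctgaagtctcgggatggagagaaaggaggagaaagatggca
Slc7a11: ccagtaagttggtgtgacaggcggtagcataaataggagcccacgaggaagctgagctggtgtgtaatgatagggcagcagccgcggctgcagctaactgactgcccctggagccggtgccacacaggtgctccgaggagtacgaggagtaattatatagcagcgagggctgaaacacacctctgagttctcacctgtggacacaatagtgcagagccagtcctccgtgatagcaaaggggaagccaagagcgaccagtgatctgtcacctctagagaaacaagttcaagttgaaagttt
The motifs, searched on both strands, were the antioxidant response element core TGACNNNGC (in 12.1% of 33469 rat promoter entries), the C/EBP-ATF composite core TGATGNAA (3.98%), the nuclear receptor element DR1 (0.415%), the cAMP response element TGACGTCA (1.83%), the GC box GGGCGG (33.1%) and the TATA box TATAAA (14.2%). An antioxidant element overlapped a GC box by position in one entry of Slc3a2. The antioxidant core was also found in the windows of Slc7a7, Slc7a1 and Slc3a1. The Slc7a10 window held 1 GC box, and the windows of Slc7a15 and Slc7a11 held none of the 6 motifs. A search of exact cores in such short windows misses elements farther away, so it cannot show that a gene lacks them. The GC content was 72.3% for Slc7a10, 53.7% for Slc7a15 and 53.3% for Slc7a11. The composite core was found in Slc7a1 alone among the members with an entry.

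Levels between genes were compared in FPKM, which divides by gene length. In control, Slc3a2 stood at 109.7 ± 10.4 FPKM (SD, n = 3), Slc7a5 at 20.7 ± 1.75 and Slc7a7 at 13.3 ± 1.91, with no overlap of libraries between these neighbours in the order. Slc7a10 (8.80 ± 2.19 FPKM) and Slc7a6 (8.68 ± 0.534 FPKM) overlapped, as did Slc7a2 (6.51 ± 0.230 FPKM) and Slc7a8 (6.39 ± 0.222 FPKM). Slc7a1 followed at 4.52 ± 0.643 FPKM, below all libraries of Slc7a8. Slc3a1 came next, followed by Slc7a15, Slc7a4 and Slc7a11 with means between 0.507 and 1.25 FPKM, and each of these overlapped its neighbour. In ES the first 3 places were the same, while Slc7a10 took place 10 and Slc7a15 place 12.

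**Figure D2:**
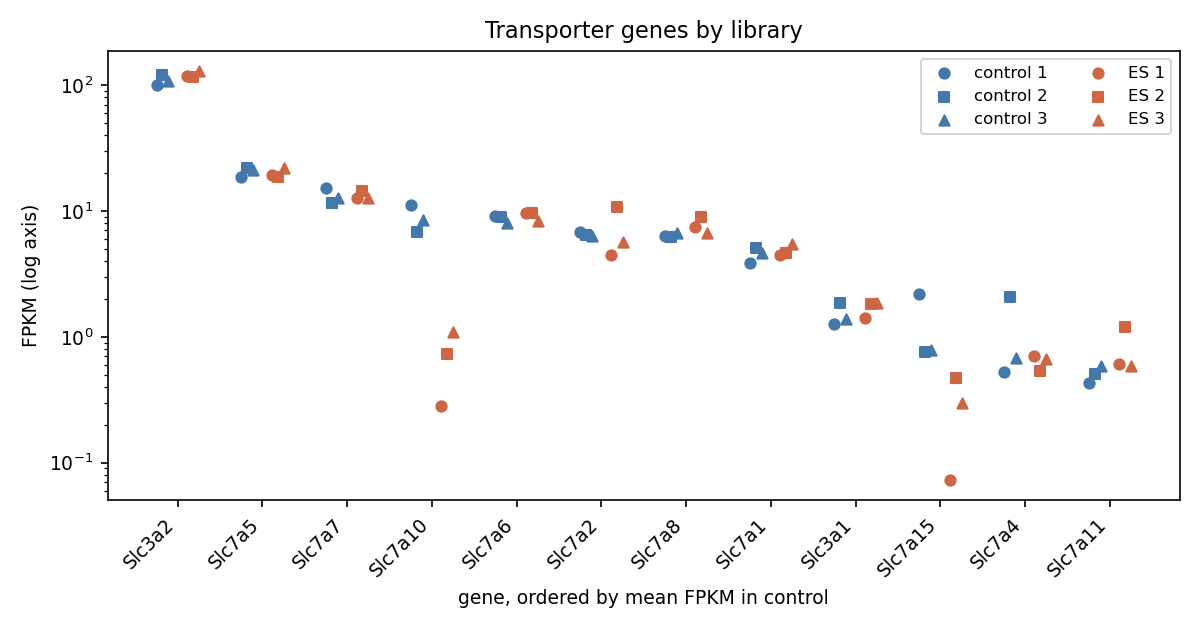
FPKM of the 12 members (log axis) in each library, with control in blue and ES in orange, ordered by the mean in control. Slc3a2 lies above 100 FPKM in all libraries, and Slc7a10 and Slc7a15 are the members whose ES libraries all lie below control.

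Just inside the rule, Slc7a4 had a mean of 2.58 CPM in its higher group. Just outside it, Slc7a9, the light chain of Slc3a1, had a mean of 0.748 CPM in its higher group. Slc7a3 had 2 to 10 counts in a library, and Slc7a14, a neural relative of the cationic transporters, had 0 to 4. Slc7a12 and Slc7a13 had 0 counts in all 6 libraries, where 3 counts, the limit that a count of 0 allows, correspond to 0.178 to 0.197 CPM in a library. This limit covers counting error only. All 12 described members passed edgeR's filter on low counts; Slc7a15 had all its control libraries above 1.8 CPM, and 1 of its ES libraries at 0.178 CPM.

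The heavy chain Slc3a2 (ENSRNOG00000018487) was at 207, 249 and 223 CPM without stimulation, and with it at 241, 240.1 and 265 CPM. The groups overlapped, since control 2 lay above ES 1 and ES 2. The log2 fold change was 0.14 ± 0.09 (SE; 95% interval −0.05 to 0.33), with an edgeR adjusted p of 0.646. Slc3a1, the heavy chain of kidney and gut, was at 2.96, 4.39 and 3.27 CPM in control and 3.32, 4.25 and 4.33 CPM in ES. Its groups overlapped too (edgeR adjusted p = 0.869). Its light chain Slc7a9 reached at most 0.917 CPM, in control 2.

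Slc7a10 (Asc-1, ENSRNOG00000010938), which carries small neutral amino acids such as serine and glycine and is also made by fat cells, was at 21.0, 12.7 and 16.1 CPM in the control libraries. With stimulation its values were 0.533, 1.38 and 2.04 CPM in the order of the library numbers. Every ES library lay below every control library. The counts behind these values were 340, 194 and 251 in control and 9, 23 and 31 in ES, and the log2 fold change was −3.66. Its last 204 bases overlap Lrp3, a receptor gene on the opposite strand. Because the treatment of strand is not given in the sources used here, reads in that overlap cannot be assigned to either gene. Lrp3 was at 7.27, 10.3 and 8.35 CPM in control and 5.75, 4.91 and 5.25 CPM in ES (edgeR adjusted p = 0.210).

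Slc7a15, described in mouse as a transporter that prefers aromatic amino acids, was at 5.36, 1.83 and 1.93 CPM in control and at 0.178, 1.14 and 0.722 CPM in ES. The groups did not overlap, as for 15.8% of all genes tested, but control 1 was far above the other control libraries. The counts were 87, 28 and 30 in control and 3, 19 and 11 in ES. The log2 fold change was −2.16, and −1.46 without control 1. These values are a description, because the gene met the level rule through the group in which it was higher.

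Adipocyte markers were lower in ES beside both genes. Of the 14 markers, 13 had a log2 fold change below 0, from −2.85 for Adipoq upward, and none was at 0 counts over the libraries. edgeR called 0 of them, with 9 lower at an unadjusted p under 0.05, against 5.94% of all genes tested. The summed markers were 3.24-fold lower in ES by the ratio of group means. Slc7a10 had a lower log2 fold change than any of the 14, but it was chosen for its fall, so nothing is read from this order. Per 1000 CPM of summed adipocyte markers, Slc7a10 stood at 9.10, 6.81 and 8.99 CPM in control and at 1.84, 1.38 and 3.69 CPM in ES, so these ratios did not overlap. Slc7a15 stood at 2.33, 0.983 and 1.07 CPM in control and at 0.613, 1.14 and 1.31 CPM in ES on the same scale, and these ratios overlapped. No test was made of either. By group means the sum was led by Cfd, Fabp4 and Lpl, with log2 fold changes of −1.78, −1.01 and −1.35, against −2.85 for Adipoq. These ratios therefore depend on which markers are summed. Because Slc7a10 was chosen for its fall, nothing is read from its ratios. Within ES, Slc7a15 and the summed markers were both lowest in ES 1 and highest in ES 2, while Slc7a10 was highest in ES 3. In bulk tissue, fewer cells of a type and less RNA per cell cannot be told apart, and the part of fat cells in these differences was not tested.

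**Figure D3:**
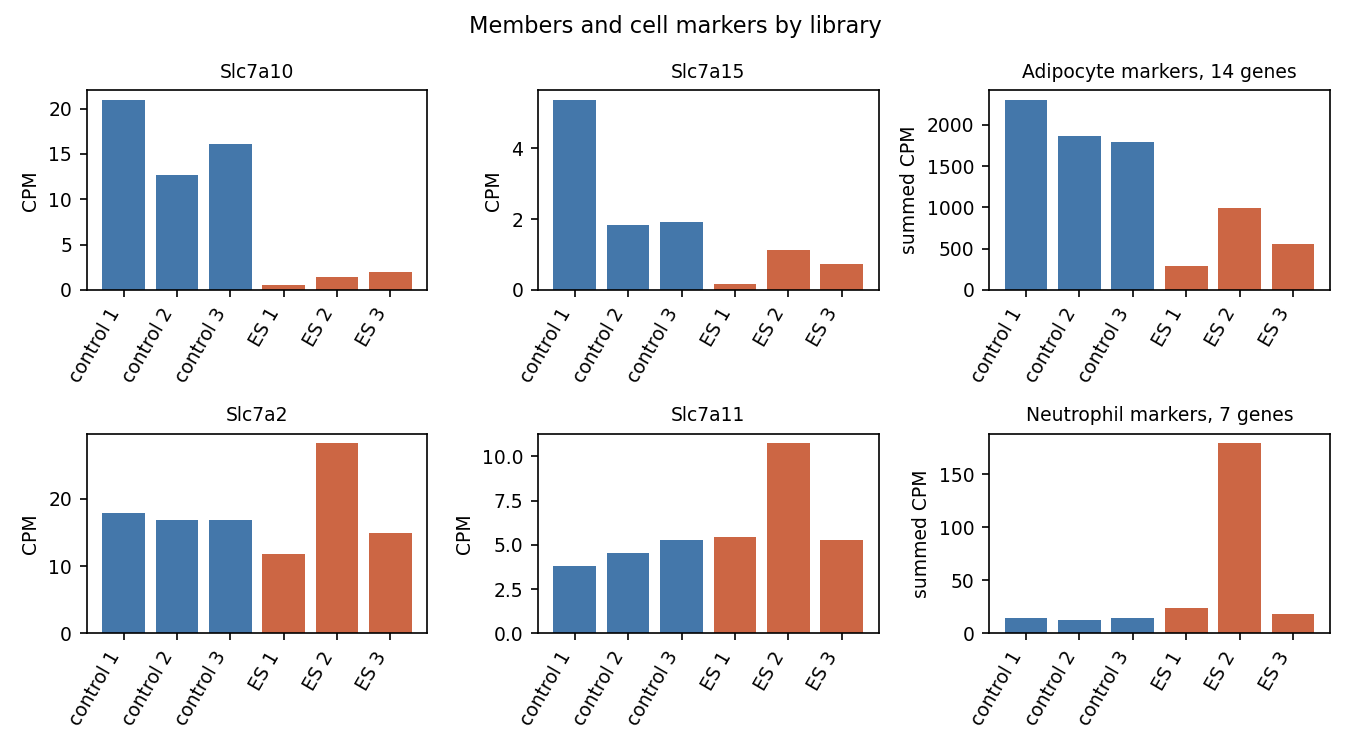
CPM of 4 members and summed CPM of the adipocyte and neutrophil markers in each library, with control in blue and ES in orange; each panel has its own axis from 0. Slc7a10, Slc7a15 and the adipocyte markers are lower in every ES library than in every control library, and Slc7a2, Slc7a11 and the neutrophil markers are highest in ES 2.

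The genes nearest to Slc7a10 across the 6 libraries, out of 13199 other protein-coding genes, were Mpo, Lgals12, Mst1, Rbp4 and Car3. Nearness was the root mean square distance of log2 CPM centred on the mean of each gene, from 0.321 for Mpo to 0.509 for Car3 on the log2 scale. Lgals12, Rbp4 and Car3 are abundant in fat, and Mpo encodes the myeloperoxidase of neutrophils. Mpo was at 10.8, 5.90 and 7.19 CPM in control and at 0.0593, 0.719 and 0.854 CPM in ES. Genes near to Slc7a15 included Pparg, the fat cell nuclear receptor, at a distance of 0.222, and Tmem179, Trarg1 and Smoc1, at 0.388 to 0.408. Among the members, Slc7a10 and Slc7a15 were each nearest to the other, although their distance of 0.939 was large. The distance spans both groups and so includes the difference between them. Slc7a10 was chosen for its fall, and the inclusion of Slc7a15 favours a lower value in ES. Nothing is therefore read from this pairing or from lower values of their nearest genes in ES.

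The light chain Slc7a5 (LAT1), which exchanges large neutral amino acids such as leucine, was at 65.0, 76.6 and 73.8 CPM in control and at 66.5, 65.0 and 76.6 CPM in ES. Its log2 fold change was −0.05 ± 0.09 (SE; 95% interval −0.26 to 0.16), with an edgeR adjusted p of 0.901. Both groups spanned nearly the same range. Slc7a7 (y+LAT1), an exchanger of cationic against neutral amino acids that is prominent in macrophages, was at 27.4, 20.7 and 22.9 CPM in control and at 22.8, 25.6 and 22.7 CPM in ES. Its groups overlapped and its 95% interval was −0.27 to 0.27, while the summed macrophage markers lay higher in each ES library than in any control library. Slc7a6 (y+LAT2), with the same kind of exchange, lay between 29.7 and 35.5 CPM in all libraries (edgeR adjusted p = 0.836).

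Slc7a8 (LAT2), an exchanger of neutral amino acids, was at 26.4, 25.9 and 27.8 CPM in control and at 30.9, 37.1 and 27.7 CPM in ES. Of the stimulated libraries, ES 1 and ES 2 lay above all control libraries and ES 3 did not, so the groups overlapped. Its log2 fold change was 0.26 ± 0.12 (SE), with an edgeR adjusted p of 0.510. Slc7a11 (xCT), the cystine and glutamate exchanger, was at 3.82, 4.52 and 5.27 CPM in control and at 5.45, 10.7 and 5.25 CPM in ES. The groups overlapped: ES 2 stood far above the rest, while ES 3 lay just under control 3. Its log2 fold change was 0.66 ± 0.29 (SE) with an edgeR adjusted p of 0.497, and 0.25 without ES 2 (adjusted p = 0.817). ES 2 was also the library with the highest summed neutrophil markers and with the highest summed erythrocyte markers, and the part of either in this value was not tested. The genes nearest to Slc7a11 were Nfkbia, an inhibitor of NF-kappaB, then Sbsn, Galnt12, Serpinb1a and Cyp26b1, all highest in ES 2. Those nearest to Slc7a8 were Tnip1, Slc31a1, Traf1, Cib1 and Atp6v1b2.

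The 6 light chains known to pair with Slc3a2 summed to 61.0, 56.1 and 57.8 FPKM in control and to 49.9, 53.6 and 51.5 FPKM in ES. Slc7a10 made up 18.2%, 12.0% and 14.7% of this sum in control and 0.568%, 1.37% and 2.10% in ES. Without Slc7a10 the sum was 49.9, 49.3 and 49.3 FPKM in control and 49.7, 52.8 and 50.4 FPKM in ES, so that these groups overlapped. Slc7a5 gave the largest share in every library, 35.6% ± 4.45 in control and 38.8% ± 3.97 in ES (SD, n = 3), and Slc7a7 the next, 22.7% ± 2.29 and 25.7% ± 1.05. Slc7a11 gave 0.874% ± 0.160 in control and 1.54% ± 0.614 in ES. The ratio of Slc3a2 to the sum was 1.89 ± 0.255 in control and 2.34 ± 0.163 in ES. Without Slc7a10 in the sum it was 2.22 ± 0.220 and 2.38 ± 0.176, and the libraries overlapped. These sums contain the gene chosen for its fall and are given with no test.

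**Figure D4:**
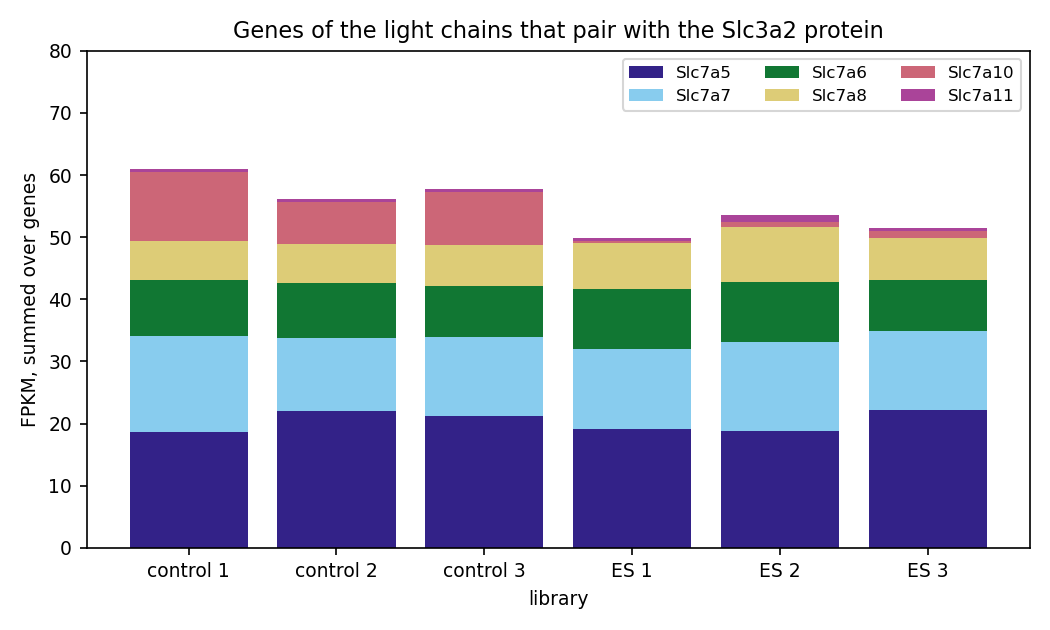
Stacked FPKM of the 6 light chain genes in each library. The segment of Slc7a10 makes up 12.0% to 18.2% of the control bars and 0.568% to 2.10% of the ES bars, while the rest of the bars sums to between 49.3 and 52.8 FPKM.

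Among the cationic transporters, Slc7a1 (CAT-1), found in most cells, was at 25.3, 33.7 and 30.8 CPM in control and at 29.6, 30.4 and 35.9 CPM in ES. The groups overlapped (log2 fold change 0.09 ± 0.12, SE; edgeR adjusted p = 0.854). Slc7a2 (CAT-2), which supplies arginine to activated macrophages, was at 17.9, 16.9 and 16.9 CPM in control and at 11.9, 28.2 and 14.9 CPM in ES. The control libraries were close together, with a SD of 0.597 CPM, and the ES libraries lay on both sides of them, with a SD of 8.70 CPM. The log2 fold change of Slc7a2 was 0.09 ± 0.32 (SE; edgeR adjusted p = 0.957) and turned to −0.36 without ES 2 (adjusted p = 0.440), the library in which the neutrophil and erythrocyte markers stood apart, whose part was not tested. Slc7a4, a relative for which no transport activity is settled, was at 4.91 CPM in control 2 and between 1.23 and 1.66 CPM in the other libraries. Its log2 fold change of −0.78 became 0.08 without control 2.

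Genes that work beside these transporters were counted in the same fit as lists of each pathway. Of 21 tested amino acid transporters of other families, edgeR called 0, with a median log2 fold change of 0.02. The lowest p was that of Slc1a5 (ASCT2), a glutamine exchanger, which averaged 90.5 ± 5.08 CPM without stimulation and 63.2 ± 10.2 CPM with it (SD, n = 3; edgeR adjusted p = 0.106). Slc38a1, a sodium-coupled glutamine transporter, followed at 56.4 ± 6.07 and 45.3 ± 5.82 CPM, with an edgeR adjusted p of 0.345. Of 23 tested genes of the ATF4 amino acid response, edgeR called 0, and at an unadjusted p under 0.05 there were 6 higher and 1 lower, where 4.01% of all genes tested were higher and 5.94% lower. The median over the list was 0.08. Ddit3 (CHOP) averaged 15.6 ± 0.300 CPM without stimulation and 21.1 ± 2.14 CPM with it, and Atf4 itself at 211 ± 5.62 and 249 ± 15.6 CPM. The edgeR adjusted p was 0.201 for Ddit3 and 0.275 for Atf4. Other genes of the list lay near 0, among them Asns, Phgdh, Psat1 and Psph, with log2 fold changes of −0.10, 0.03, −0.06 and −0.08. The lower gene was Aldh18a1, at 3.88, 0.721 and 0.899 CPM in control. In ES it was at 0.356, 0 and 0.657 CPM, so its value rests on few counts.

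In the list of cystine and glutathione genes, 1 of 16 tested was called higher and 0 lower, against 0.0337% and 0.135% of all genes tested, and the median was 0.12. The called gene was Nqo1, a quinone reductase induced by NRF2, which averaged 22.1 ± 0.687 CPM without stimulation and 36.1 ± 4.57 CPM with it (SD, n = 3; edgeR adjusted p = 0.0428). Hmox1, the heme oxygenase, and Oplah, an enzyme of glutathione turnover, were next by p, at adjusted p of 0.530 and 0.558 from edgeR. Of 16 tested genes of arginine and polyamine metabolism edgeR called 0. By unadjusted p under 0.05 there were 1 higher and 2 lower, against 4.01% and 5.94% of all genes tested. The higher gene was Sat1, which acetylates polyamines (112 ± 7.61 CPM without stimulation and 137 ± 5.23 CPM with it). The lower ones were the nitric oxide synthases Nos1 (0.936 ± 0.0645 and 0.123 ± 0.0594 CPM) and Nos3 (27.5 ± 1.85 and 21.8 ± 1.83 CPM). In ES, Nos1 was at 0.178, 0.0599 and 0.131 CPM, so it passed the filter on low counts through control alone. As that favours a lower value in ES, nothing is read from its p or from its place in this count. Of 21 tested genes of leucine sensing and mTORC1, edgeR called 0. By unadjusted p under 0.05, 2 were higher and 0 lower, against 4.01% and 5.94% of all genes tested. With so few genes, nothing is read from the counts of either list. Rheb, the activator of mTORC1, averaged 87.9 ± 2.77 CPM without stimulation and 101 ± 3.45 CPM with it (edgeR adjusted p = 0.352). The endothelial and the smooth muscle markers each had 8 tested genes with 1 called lower by edgeR, Kdr and Myh11, against 0.135% of all genes tested. The fibroblast markers had 8 tested with 0 called. The median log2 fold changes were −0.38 for endothelial, −0.70 for smooth muscle and −0.43 for fibroblast markers, against 0.0025 over all genes tested.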

How the data were processed

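Per the labels' protocols, RNA was isolated with TRIzol and sequenced from libraries of a NEBNext Ultra kit. The authors deposited whole-number read counts per gene, 1 column per library, and FPKM values of the same libraries. Each deposited FPKM value equalled count over gene length and 1 constant per library. The deposited group means of FPKM were used only as a check of the FPKM columns. Which aligner and counter were used, and with which strand setting, is not given in the sources used here. As build, rn7 appears in the submitters' processing notes, but genes on chromosome 1 of the deposited table reach position 282724300, beyond the end of that chromosome in rn7, so the build of the tables is not settled and their coordinates are not printed. Promoters come from RefSeq on GRCr8.

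The count table held 33713 genes and 2 empty lines; 830 loci without a gene name were kept, and left out in an alternative. Groups and replicate numbers were read from the titles. The main test was edgeR's two-sided quasi-likelihood test (version 4.0.16, under R 4.3.3), using robust dispersions, after filterByExpr and TMM, on all 6 libraries, with Benjamini-Hochberg adjustment over 14828 genes. A SE is the absolute log2 fold change over the square root of F, and 95% intervals use the t distribution. DESeq2 1.42.0, limma 3.58.1 (voom, and trend on log2 of FPKM plus 0.1 or 1), other filters and scalings, a replicate block and leaving out each library were alternatives. Scripts were tested on simulated counts.

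The members and lists were chosen with earlier results of these data known. All members meeting the rule are named, up to 3 genes of lowest p for each list of working partners, and the 5 nearest genes for Slc7a10 and for the 3 other members of lowest p, by log2 CPM with a prior count of 2. One of these genes is not reported here. Lists matched by symbol, or by a RefSeq synonym that is no other gene's symbol or a RefSeq-listed Ensembl identifier; genes without a match were not analysed here.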

Additional observations from a re-analysis of the deposited data

How the results depend on the processing

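Across 16 alternatives, 0 members were called higher in each, as in the fit reported. The count of members called lower was 1. It was 2 with DESeq2, and 0 with non-robust dispersions, limma-voom, limma on log2(FPKM + 0.1) and the replicate block; leaving out 1 library gave 0 to 1, with 0 without control 1, without control 3 or without ES 2. The gene in question was Slc7a10, chosen for its fall, and with DESeq2 also Slc7a15, which met the level rule through control alone, so nothing is read from these counts. Where the call was lost, the log2 fold change of Slc7a10 was −3.45 to −3.82, against −3.66; over all 16 alternatives it was −2.53 (on log2(FPKM + 1)) to −4.11. The number of all genes called was 25, against 308 with DESeq2, 2 with non-robust dispersions, limma-voom or limma on log2(FPKM + 0.1), 3 on log2(FPKM + 1), 132 without a filter on low counts, 11 with the replicate block and 2 to 152 when 1 library was left out (2 without control 3, 5 without control 1, 41 without ES 3 and 152 without control 2). The cause of these moves was not tested. Deviations of same-numbered libraries from their group means had correlations of −0.125, −0.130 and −0.0368. These values gave no sign of a pairing by number, but with 3 libraries in a group they cannot exclude one. The rule took 12 members on library totals without TMM and at a minimum of 2 CPM, and 14 at 0.5 CPM. The fold change of 4 members changed sign in 17 fits in all, each uncalled. Slc7a1 was at −0.0087 without control 1 (range over left-out libraries −0.0087 to 0.19), and Slc7a4 at 0.079 without control 2 (−1.11 to 0.079). Slc7a2 was at −0.010 with limma-voom, −0.0070 on log2(FPKM + 0.1), −0.0055 with the replicate block and −0.36 without ES 2 (range −0.36 to 0.33). Slc7a7, at −0.0017, was at 0.0027 with DESeq2, 0.00089 with median-of-ratios factors, 0.0043 with limma-voom, 0.011 and 0.0094 on log2 of FPKM plus 0.1 and 1, 0.0051 without a filter, 0.0013 at a mean of 1 CPM, 0.0050 with the replicate block, 0.12 without control 1 (range −0.089 to 0.12), 0.031 without ES 1 and 0.029 without ES 3. Members with few counts, such as Slc7a15 in ES 1 with 3, are limited by depth.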
